A study of Homo sapiens with 6 samples.

Results

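Transcripts that do not code for protein and lie between, beside or across coding genes were followed in HEK293T cells that over-expressed *USF1*. They were taken by name, as genes whose symbol begins with LINC or SNHG or ends in -AS with a digit, -DT or -IT1, together with *MALAT1*, *NEAT1*, *TUG1*, *GAS5* and *OIP5-AS1*. The rule found 138 genes on 177 of the 16569 probe sets. Of these, 113 had a probe set listed for no other gene, out of 9586 such genes in all. They were 67 antisense genes (-AS), 20 divergent transcripts (-DT), 20 LINC genes, 4 SNHG genes, *MALAT1* and *TUG1*, and no -IT1 gene had a probe set of its own. Another 14 were host loci, listed only together with the small RNAs that are cut from their introns or transcript, and 12 shared probe sets with coding or other genes and are not named. *NUTM2B-AS1* had probe sets of both kinds. RefSeq types 111 of the 113 genes as long noncoding RNA, and *TUG1* as protein coding.

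HEK293T is a transformed line derived from human embryonic kidney. Cells labelled USF1 had received a pcDNA4/HisMax plasmid with the coding region of *USF1*, a basic helix-loop-helix transcription factor, and cells labelled Empty vector the plasmid without it. RNA was taken 48 hours after this transient transfection and hybridized to Affymetrix U133 Plus 2.0 arrays, 3 for USF1 and 3 for Empty vector. Both groups carry the cells' own *USF1* protein, and nothing in the labels tells whether replicates are separate transfections, so p-values measure only the spread between arrays. Values are given on the log2 scale of RMA, in which a difference of 1 is a doubling, and a difference is the USF1 mean minus the Empty vector mean. A change was called where limma gave a p-value under 0.05 after adjustment over all 16569 probe sets.

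Long noncoding RNAs are made by the same polymerase as messenger RNAs and are often spliced, and many remain in the nucleus. A divergent transcript starts beside the start of a coding gene and runs the other way, an antisense transcript lies on the strand opposite to a coding gene, and an SNHG gene carries small nucleolar RNAs in its introns. Many promoter-born noncoding RNAs are short-lived because the nuclear exosome degrades them.

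The single *USF1* probe set was at 4.76, 4.94 and 4.68 on the USF1 arrays and at 4.37, 5.08 and 5.14 on the Empty vector arrays (adjusted p-value 0.836 from limma). The positions of its probes are not given here, and the plasmid holds the coding region alone, so this probe set is no check for RNA from the plasmid. Empty vector replicate 1 stood apart. Its probe-set differences from the other Empty vector arrays had an SD of 0.336, against 0.182 between those 2 arrays and 0.149 to 0.222 among USF1 arrays. The 5' minus 3' value of actin, a sign of RNA integrity, was -1.34 on Empty vector replicate 1, -1.04 on replicate 2 and -0.52 on replicate 3, and -0.68 to -0.49 on USF1 arrays. Of 9 marker genes of HEK293T cells 4 were measured and 0 were called by limma (0 also at an unadjusted p-value under 0.05), and none of 17 markers of blood, liver, fibroblast, endothelial or fat cells had a probe set of its own among the values.

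In cells that over-expressed *USF1*, many more of the measured noncoding genes fell than rose. Of the 113 genes 31 fell and 4 rose, while 78 were not called. This is 27.4% lower and 3.54% higher, and over all 9586 genes at their brightest probe set 8.89% were lower and 5.18% higher. The median difference of the 113 genes was -0.29, against -0.08 over 9400 protein-coding genes. Of the 113, 91 were below 0, where 6076 of all 9586 genes were. All 3 USF1 arrays lay below all Empty vector arrays in 50 of the 113 noncoding genes, or 44.2%, where 24.5% of all probe sets did. They lay above in 8, or 7.08%, where 11.6% did. Over all probe sets 36.1% were apart in either direction. At an unadjusted p-value under 0.05, 57 of these genes were lower and 8 higher, and over all genes 23.9% were lower and 10.6% higher.

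The share of lower calls was above that of all probe sets at low and at high signal. All probe sets were split into 4 bins of equal size by their mean. In the bin of lowest signal 32% of 50 noncoding genes fell, against 8.4% of all probe sets in it. In the next bins it was 15.6% of 32 genes against 9.39% and 27.3% of 22 against 7.8%, and in the bin of highest signal 44.4% of 9 against 4.8%. The lowest mean of any probe set over all arrays was 3.49, and 55 of the 113 genes had a mean under 5. *ZEB1-AS1*, *GABPB1-AS1*, *ARHGAP5-AS1*, *LINC01547*, *SNTG2-AS1* and *LINC01023*, which fell, had USF1 means of 3.53 to 3.71. Their fold changes rest on values near the floor. By class, 7 of 20 LINC genes fell and 0 rose, 2 of 4 SNHG genes fell, 17 of 67 antisense genes fell and 3 rose, and 5 of 20 divergent transcripts fell and 1 rose.

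Fewer cells with a transcript and less of it per cell cannot be told apart in these bulk samples. The count of falls leaned on single arrays. It dropped to 5 when USF1 replicate 3 was left out (0.887% of all probe sets were then lower), to 7 when USF1 replicate 1 was (1.49%), to 14 for Empty vector replicate 2 (1.73%) and to 19 for Empty vector replicate 3 (4.24%). It was 40 when USF1 replicate 2 was left out (9.47%) and 31 for Empty vector replicate 1 (6.95%).

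**Figure D1:**
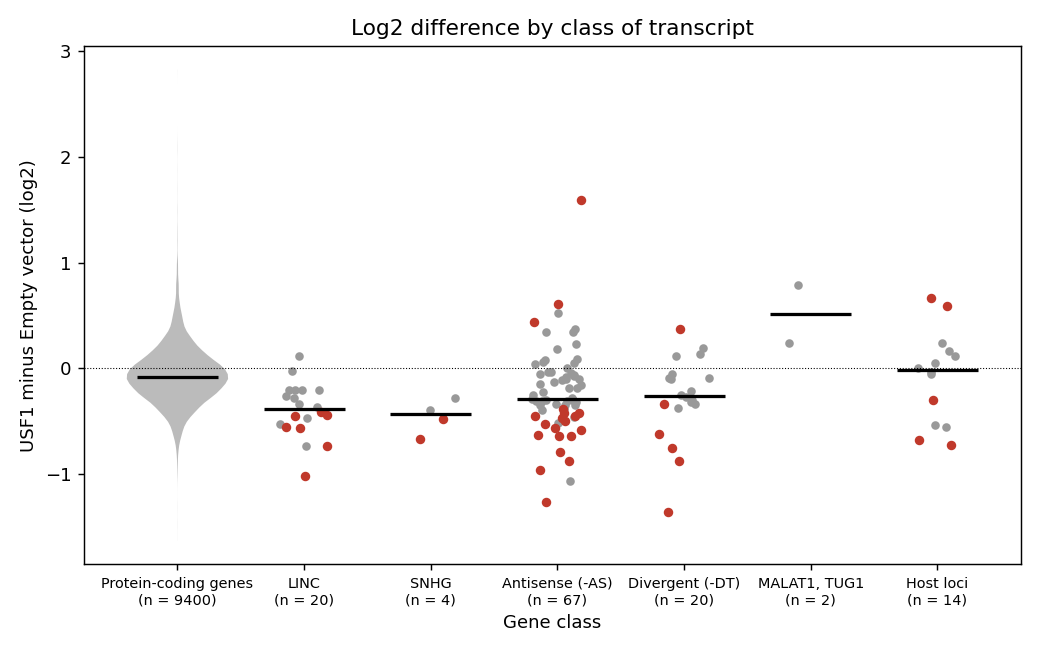
Log2 difference, USF1 minus Empty vector, of each gene at its brightest probe set, by class of transcript, with genes called at an adjusted p-value under 0.05 in red, other noncoding genes in grey, the median as a black bar, and protein-coding genes as a density. The medians of LINC, SNHG, antisense and divergent genes lie between -0.43 and -0.26, below the -0.08 of protein-coding genes.

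*DSP-AS1*, antisense to the gene of desmoplakin, which ties intermediate filaments to desmosomes, changed more than any other measured noncoding gene. It was at 6.32, 6.31 and 6.34 on the USF1 arrays and at 4.93, 4.68 and 4.59 on the Empty vector arrays. The groups were far apart, and the USF1 arrays were nearly equal. The rise was 1.59 (SE 0.10, adjusted p-value 0.000279 from limma), or 3.01-fold, and it kept its call whichever array was left out. *DSP* itself was at 8.85, 8.92 and 8.96 with USF1 and at 8.67, 8.83 and 8.77 with Empty vector, a difference of 0.16 (SE 0.09) that did not pass the test (adjusted p-value 0.256 from limma). The paper lists the *DSP-AS1* probe set under *DSP* itself, and which strand it reads could not be checked.

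USF1 is known to bind the E-box CACGTG, which reads the same on both strands. RefSeq gives *DSP-AS1* 3 promoter windows, each from 250 bases before to 50 after a start, and the same E-box lies in 2 of them. The window below is chr6:7543034-7543333 of GRCh38.p14, minus strand, with the E-box in capitals, centred 44 bases before the start. It is shown because *DSP-AS1* had the largest rise and its promoter holds the letters that USF1 binds.
DSP-AS1: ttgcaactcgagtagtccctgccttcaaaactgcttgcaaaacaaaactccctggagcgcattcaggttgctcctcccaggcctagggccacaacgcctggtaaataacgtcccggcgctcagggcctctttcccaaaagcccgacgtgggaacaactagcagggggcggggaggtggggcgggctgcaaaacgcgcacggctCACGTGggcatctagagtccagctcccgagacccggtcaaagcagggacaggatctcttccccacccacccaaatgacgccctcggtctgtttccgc

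The E-box was found in 7 of the 95 noncoding genes with a window in the RefSeq table, or 7.37%. It was found in 8.77% of all 27305 genes there, in 10.9% of protein-coding genes and in 5.84% of genes of long noncoding RNAs. Counted by window, the share was 6.11% for these genes, 5.4% for all long noncoding RNAs and 8.34% for protein-coding genes. It occurred in 1 of 3 genes that rose, in 1 of 29 that fell and in 5 of 63 that were not called. The other 6 genes are shown with the bases around the E-box in capitals, since their responses differed. *LINC02381* (chr12:54126004-54126033, plus strand) fell, and *TUG1* (chr22:30969176-30969205, plus), *OIP5-AS1* (chr15:41283740-41283767, plus), *NUTM2B-AS1* (chr10:79826596-79826625, minus), *PCBP1-AS1* (chr2:70086945-70086974, minus) and *PRDM16-DT* (chr1:3067677-3067706, minus) were not called at their brightest probe set. The site of *PRDM16-DT* lies after the start and the others before it.
LINC02381: ccagcccctggcCACGTGgtccctcgtacc
TUG1: tcccgcccctgtCACGTGacagcgtgcgcc
OIP5-AS1: actatcttacCACGTGgtacagcttcta
NUTM2B-AS1: acggatggaggcCACGTGacagcagtgggc
PCBP1-AS1: cgcgcgggcgggCACGTGgggccctttcgt
PRDM16-DT: cactgagacccaCACGTGcaactccgcgcc

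*LINC02381* was at 7.48, 7.47 and 7.30 on the USF1 arrays and at 7.99, 7.81 and 7.77 on the Empty vector arrays. The groups did not overlap, and the fall was -0.44 (SE 0.10, adjusted p-value 0.0267 from limma). *OIP5-AS1*, which is known to pair with the microRNA miR-7, was at 7.95, 7.92 and 7.87 with USF1 and at 8.33, 8.16 and 8.08 with Empty vector. The arrays were apart here too, but the difference of -0.28 (SE 0.09) did not pass the test (adjusted p-value 0.0843 from limma), and neither did those of its other 2 probe sets. *PCBP1-AS1* differed by -0.25 (adjusted p-value 0.436) at its brightest probe set and fell by 0.40 (adjusted p-value 0.0312) at its second one, both from limma. *NUTM2B-AS1* differed by -0.38 and *PRDM16-DT* by 0.20, with overlapping arrays.

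Among divergent transcripts the largest fall was that of *DPH5-DT*, which starts beside *DPH5*, a methyltransferase of diphthamide synthesis. *DPH5-DT* was at 5.30, 5.46 and 5.05 on the USF1 arrays and at 6.64, 6.75 and 6.49 on the Empty vector arrays. Every USF1 array was more than 1 below every Empty vector array, and the fall of -1.35 (SE 0.12, adjusted p-value 0.00125 from limma), or 2.55-fold, kept its call whichever array was left out. Its second probe set fell by 0.51 (adjusted p-value 0.0251 from limma). *DPH5* was at 6.48, 6.36 and 6.40 with USF1 and at 6.72, 6.64 and 6.62 with Empty vector, a difference of -0.25 (SE 0.08) that did not pass the test (adjusted p-value 0.0856 from limma). The *DPH5* arrays were apart too, and its dimmer probe set differed by -0.255 (adjusted p-value 0.218 from limma).

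*MARCHF6-DT*, beside the gene of a ubiquitin ligase of the endoplasmic reticulum, was at 4.32, 4.55 and 4.01 with USF1 and at 5.45, 5.08 and 4.99 with Empty vector. The groups did not overlap, and the fall was -0.88 (SE 0.16, adjusted p-value 0.0159 from limma), where *MARCHF6* differed by 0.12 (SE 0.08, adjusted p-value 0.354). *MAP3K2-DT* fell by 0.76 (adjusted p-value 0.0217), *TMEM161B-DT* by 0.62 (0.0194) and *C2orf49-DT* by 0.33 (0.0429), all from limma. *C2orf49-DT* kept its call in 1 of the 6 fits with an array left out. *C2orf74-DT* was not called at its brightest probe set (-0.27, adjusted p-value 0.457) but fell by 0.56 (adjusted p-value 0.0116) at its other one, both from limma. *PPP3CA-DT*, beside the gene of a catalytic subunit of calcineurin, was the divergent transcript that rose, by 0.38 (SE 0.09, adjusted p-value 0.0364 from limma), and it kept its call in 1 of the 6 fits with an array left out.

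The largest falls of antisense genes were those of *DMTF1-AS1* and *ZEB1-AS1*, opposite the genes of the transcription factors DMTF1 and ZEB1. *DMTF1-AS1* was at 5.81, 6.47 and 5.69 on the USF1 arrays and at 7.29, 7.25 and 7.22 on the Empty vector arrays. The Empty vector arrays were tight, USF1 replicate 2 was the USF1 array nearest to them, and the fall was -1.26 (SE 0.19, adjusted p-value 0.00719 from limma), or 2.40-fold. *ZEB1-AS1* was at 3.45, 3.80 and 3.33 with USF1 and at 4.35, 4.79 and 4.33 with Empty vector, a fall of -0.96 (SE 0.16, adjusted p-value 0.0111 from limma). *ZNF687-AS1* was at 4.48, 4.27 and 4.48 with USF1 and at 5.40, 5.24 and 5.22 with Empty vector, a fall of -0.88 (SE 0.10, adjusted p-value 0.00289 from limma). All these groups were apart. The calls of *DSP-AS1*, *DPH5-DT*, *DMTF1-AS1*, *ZNF687-AS1*, *GABPB1-AS1* and *LINC01023* were the 6 of 35 that held whichever array was left out.

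The other antisense genes that fell were *ZNF232-AS1*, *TRAM2-AS1*, *ELOA-AS1*, *MAPKAPK5-AS1*, *SNTG2-AS1*, *RALY-AS1*, *ARHGAP5-AS1*, *ZSCAN16-AS1*, *NR2F1-AS1*, *URB1-AS1*, *RARA-AS1*, *PTPRG-AS1* and *KRT10-AS1*, by between 0.39 and 0.64. Of the 6 fits with an array left out, *RALY-AS1* kept its call in 0, *ZSCAN16-AS1* in 1 and each of the others in 2 to 4. Of the 2 probe sets of *MAPKAPK5-AS1*, 1 fell by 0.58 and the other differed by 0.02. *ILRUN-AS1* rose by 0.44 (SE 0.10, adjusted p-value 0.0261 from limma), from 5.94, 5.74 and 5.71 with Empty vector to 6.25, 6.31 and 6.15 with USF1. It kept its call in 1 of the 6 fits with an array left out. *SLC25A21-AS1*, singled out after its values were seen, showed a difference as large as those of called genes without a call. It was at 3.91, 5.25 and 4.14 with USF1 and at 5.20, 5.82 and 5.48 with Empty vector, so that USF1 replicate 2 lay above an Empty vector array (-1.07, SE 0.32, adjusted p-value 0.0616 from limma).

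**Figure D2:**
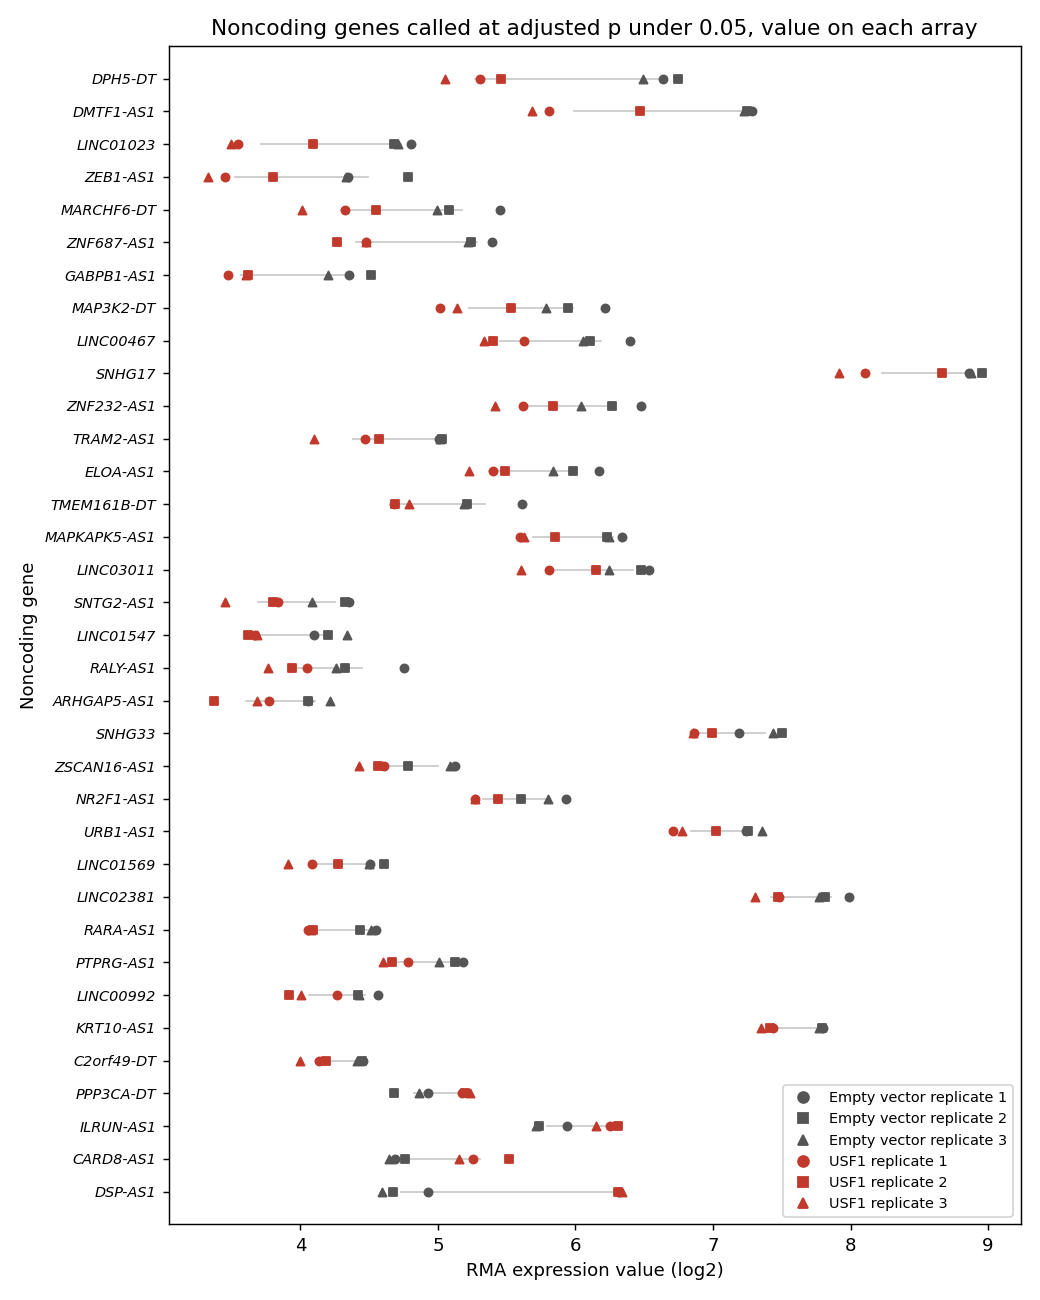
RMA expression value (log2) of the 35 noncoding genes called at an adjusted p-value under 0.05 on each of the 6 arrays, Empty vector in grey and USF1 in red, with a symbol for each replicate and a line between the group means. In each gene the groups are apart. The 31 genes that fell are above the 4 that rose, and *DSP-AS1* at the bottom has the widest gap.

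Among the LINC genes *LINC01023* fell most. It was at 3.55, 4.09 and 3.49 on the USF1 arrays and at 4.81, 4.68 and 4.71 on the Empty vector arrays. The groups did not overlap, and the fall was -1.02 (SE 0.15, adjusted p-value 0.00778 from limma), or 2.03-fold. Its USF1 mean of 3.71 was near the lowest mean of any probe set, 3.49. Both probe sets of *LINC00467* fell, by 0.74 (adjusted p-value 0.0108) and 0.82 (adjusted p-value 0.00306, both from limma). At the brighter one the values were 5.62, 5.40 and 5.33 with USF1 and 6.40, 6.11 and 6.06 with Empty vector, with no overlap. *LINC03011*, *LINC01547* and *LINC01569* fell by 0.56, 0.55 and 0.45. *LINC00992* (-0.41, adjusted p-value 0.0471) was the fall nearest to the threshold and *LINC02693* (-0.33, adjusted p-value 0.0541) the nearest one outside it, both from limma. Of the 6 fits with an array left out, *LINC03011* kept its call in 1 and *LINC00992* in 0. On the higher side *PPP3CA-DT* was just inside and *LOXL1-AS1* (0.52, adjusted p-value 0.0589 from limma) just outside.

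Of the 4 SNHG genes with probe sets of their own, *SNHG17* and *SNHG33* fell at both of their probe sets. *SNHG17* was at 8.10, 8.66 and 7.92 with USF1 and at 8.86, 8.95 and 8.87 with Empty vector. USF1 replicate 2 was again nearest to the Empty vector arrays, and the fall was -0.67 (SE 0.17, adjusted p-value 0.0415 from limma). *SNHG33* fell by 0.47 (SE 0.11, adjusted p-value 0.0267 from limma). *SNHG19* (-0.39, adjusted p-value 0.0585) and *SNHG32* (-0.28, adjusted p-value 0.0656) were not called, although their USF1 arrays lay below all Empty vector arrays.

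The host loci, whose probe sets are listed for the host transcript and its small RNAs together, went both ways. Of 14 loci 3 fell, 2 rose and 9 were not called, with a median difference of -0.01, where 7.6% of all probe sets were called lower and 4.32% higher. The *SNHG8* locus was at 6.83, 6.49 and 6.72 with USF1 and at 7.50, 7.46 and 7.24 with Empty vector. These groups were apart, and the fall of -0.72 (SE 0.12, adjusted p-value 0.00987 from limma) kept its call whichever array was left out. The *SNHG12* locus was at 9.10, 9.00 and 9.04 with USF1 and at 8.62, 8.28 and 8.47 with Empty vector. It rose by 0.59 (SE 0.10, adjusted p-value 0.0132 from limma), and its other 2 probe sets rose by 0.70 and 0.54.

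The *SNHG11* locus fell by 0.67 (adjusted p-value 0.0341) and the *SNHG9* locus rose by 0.66 (adjusted p-value 0.0371), both from limma. Of the 6 fits with an array left out, *SNHG11* kept its call in 2 and *SNHG9* in 1. The *GAS5* locus, host of many box C/D small nucleolar RNAs, was at 11.11, 11.03 and 11.05 with USF1 and at 11.37, 11.39 and 11.32 with Empty vector. The arrays were apart, but the fall of -0.29 (SE 0.08, adjusted p-value 0.0488 from limma) lost its call whichever of the 6 arrays was left out, and the other 2 probe sets were not called. The *SNHG15* locus (-0.55, adjusted p-value 0.0596) and the *SNHG20* locus (-0.53, adjusted p-value 0.0919) did not pass the test, and the loci of *SNHG1*, *SNHG5*, *SNHG6*, *SNHG7*, *SNHG16* and *SNHG29* differed by -0.05 to 0.24 and were not called.

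*MALAT1*, a nuclear RNA of the speckles, showed the widest spread of any noncoding gene measured here, and it came from 1 array. Its brightest probe set was at 6.26, 6.22 and 6.81 with USF1 and at 4.17, 6.55 and 6.22 with Empty vector. Empty vector replicate 1 was low and the other 5 arrays overlapped, so that the difference of 0.79 (SE 0.53) did not pass the test (adjusted p-value 0.347 from limma), and it was 0.05 without that array. Empty vector replicate 1 was the lowest array by more than 1 at all 7 *MALAT1* probe sets, with values of 2.01 to 4.17. At the second brightest probe set it was at 2.15, where the other 5 arrays were at 6.48 to 6.99, or 23.4-fold lower than their mean. Its gap of -4.34 to the next lowest array was the largest of all 16569 probe sets. The lowest value of any probe set on Empty vector replicate 1 was 1.89, so the 23.4-fold ratio rests on a value near the floor. Of the 19 probe sets at which Empty vector replicate 1 lay more than 2 below all other arrays, 4 were of *MALAT1*.

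*NEAT1*, the RNA on which paraspeckles are built, was not called (0.16, SE 0.13, adjusted p-value 0.419 from limma). Empty vector replicate 1 was close to the next array at 2 of its 3 probe sets, and at the dimmest it was at 3.15, where the others were at 4.60 to 5.34. At that probe set the difference was 0.22 with all arrays and -0.47 (SE 0.12, adjusted p-value 0.032 from limma) without Empty vector replicate 1. *TUG1* was at 6.97, 6.56 and 6.94 with USF1 and at 6.60, 6.58 and 6.58 with Empty vector at its brightest probe set, which overlapped (0.24, SE 0.12, adjusted p-value 0.215 from limma). On another *TUG1* probe set Empty vector replicate 1 was at 5.33 and the other arrays at 6.24 to 6.62. Empty vector replicate 1 also had the lowest actin 5' minus 3' value, and the part of RNA integrity in these values was not tested. Of the 113 noncoding genes at their brightest probe set, *MALAT1* was the 1 gene with such a gap of more than 1.

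**Figure D3:**
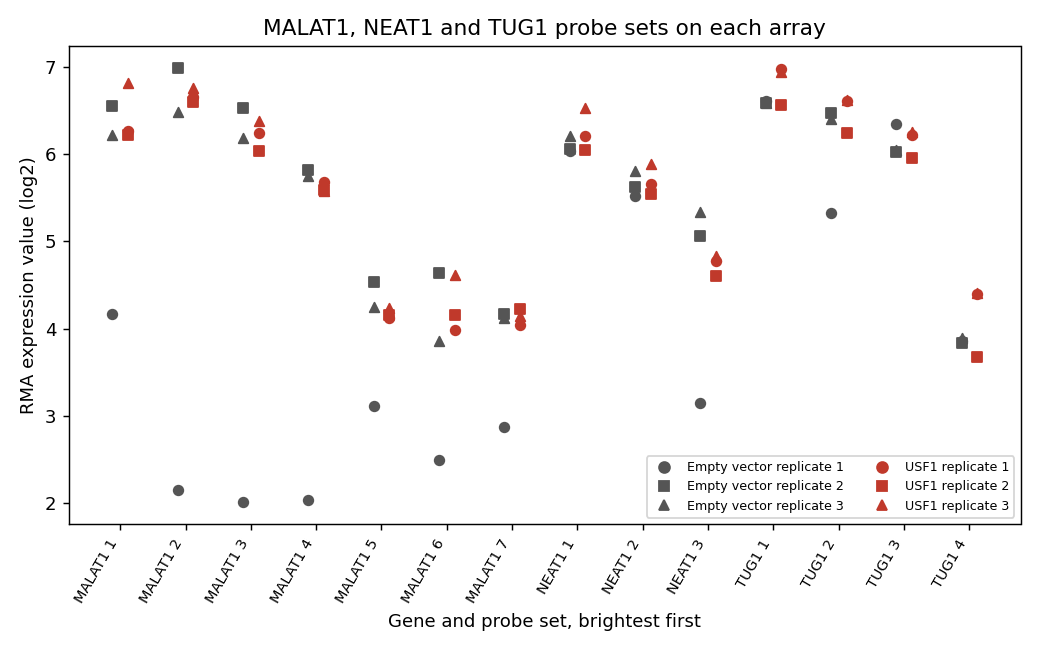
RMA expression value (log2) of each *MALAT1*, *NEAT1* and *TUG1* probe set on each array, Empty vector in grey and USF1 in red, with a symbol for each replicate, ordered within a gene from the brightest. Empty vector replicate 1 (grey circles) is between 2.01 and 4.17 at all 7 *MALAT1* probe sets, below every other array.

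For 81 of the noncoding genes a coding neighbour was measured, 70 of them named by the symbol and 11 the nearest coding gene within 10 kb, and 32 had none. Pairs compare the probe set listed for a noncoding transcript with that of the coding gene at its side. Which strand these probe sets read could not be checked. The noncoding member was called in 28 pairs, 24 of them lower, and the coding neighbour in 8, 4 lower and 4 higher, where 14.1% of all genes were called. In 25 pairs the noncoding transcript alone was called, 22 lower and 3 higher. The neighbour's difference was below 0 in 15 of these 22, where 6076 of all 9586 genes were. The neighbour's USF1 arrays lay below all its Empty vector arrays in 5 of the 22, where 24.5% of all probe sets did. In 2 of the 22 the neighbour's difference was at least as low as that of the noncoding transcript. These were *C2orf49* (-0.34, adjusted p-value 0.0679 from limma, beside -0.33 for *C2orf49-DT*) and *ZSCAN16* (-0.59, adjusted p-value 0.0762 from limma, beside -0.47 for *ZSCAN16-AS1*), both with their arrays apart. Both fell in 1 pair, both were called in opposite directions in 2, the neighbour alone was called in 5 and neither in 48. The median difference was -0.29 for the noncoding transcripts and -0.05 for their neighbours, and the noncoding value was the lower one in 59 of 81 pairs. The noncoding-only count was 6 to 28 when 1 array at a time was left out.

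*ZNF232-AS1* and *ZNF232*, a zinc finger gene, fell together. *ZNF232-AS1* was at 5.62, 5.84 and 5.41 with USF1 and at 6.48, 6.26 and 6.04 with Empty vector, and *ZNF232* at 6.59, 6.91 and 6.60 against 7.40, 7.33 and 7.24. Neither gene overlapped between groups, and the falls were -0.64 (SE 0.14, adjusted p-value 0.0268) and -0.62 (SE 0.11, adjusted p-value 0.0136), both from limma.

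*GABPB1-AS1* and *GABPB1*, a subunit of the transcription factor GABP, moved apart. *GABPB1-AS1* was at 3.48, 3.62 and 3.60 with USF1 and at 4.35, 4.51 and 4.20 with Empty vector, a fall of -0.79 (SE 0.10, adjusted p-value 0.00519 from limma). Its USF1 mean of 3.57 was near the lowest mean of any probe set, 3.49. *GABPB1* was at 6.44, 6.59 and 6.46 with USF1 and at 6.13, 6.03 and 5.88 with Empty vector, a rise of 0.49 (SE 0.10, adjusted p-value 0.0189 from limma). Neither overlapped, and the second *GABPB1* probe set also rose, by 0.38. The second probe set of *GABPB1-AS1* (-0.45, adjusted p-value 0.0967 from limma) was not called. The within-array difference, noncoding minus coding, changed by -1.28, with an exact permutation p-value of 0.1, the smallest that 3 against 3 arrays can give. Since the arrays of both genes were apart in opposite directions, this test could give no other value and adds no support.

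*CARD8-AS1* and *CARD8*, a sensor of the inflammasome, moved apart the other way. *CARD8-AS1* was at 5.25, 5.51 and 5.15 with USF1 and at 4.69, 4.76 and 4.65 with Empty vector, a rise of 0.61 (SE 0.11, adjusted p-value 0.014 from limma). *CARD8* was at 4.43, 4.42 and 4.24 with USF1 and at 4.95, 4.82 and 4.93 with Empty vector, a fall of -0.54 (SE 0.09, adjusted p-value 0.0121 from limma). The arrays of both genes were apart, and the within-array difference changed by 1.15 (exact permutation p-value 0.1, 2-sided). That p-value too was fixed by the arrays being apart in opposite directions.

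In 5 pairs the coding gene alone was called, each gene being read at its brightest probe set. *LOXL1*, an enzyme of elastin cross-linking, was at 6.36, 6.14 and 6.08 with USF1 and at 5.02, 4.71 and 5.13 with Empty vector, a rise of 1.24 (SE 0.13, adjusted p-value 0.00243 from limma). *LOXL1-AS1* was at 4.18, 3.86 and 4.29 against 3.69, 3.76 and 3.30, also with no overlap, but was not called. *SLC12A2*, a sodium, potassium and chloride cotransporter, rose by 0.55 and *TRAF3IP2*, an adaptor of interleukin-17 signalling, by 0.41, while *SLC12A2-DT* differed by -0.05 and *TRAF3IP2-AS1* by -0.34. *THAP9* fell by 0.91 (adjusted p-value 0.00265) and *CHKB*, a choline kinase, by 0.77 (adjusted p-value 0.00652), both from limma, where *THAP9-AS1* differed by -0.06 and *CHKB-DT* by -0.21. *RBM26*, neighbour of *RBM26-AS1*, was not called at its brightest probe set (0.06). At dimmer ones it fell by 0.34 (adjusted p-value 0.0454) and 0.39 (adjusted p-value 0.0323), both from limma.

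**Figure D4:**
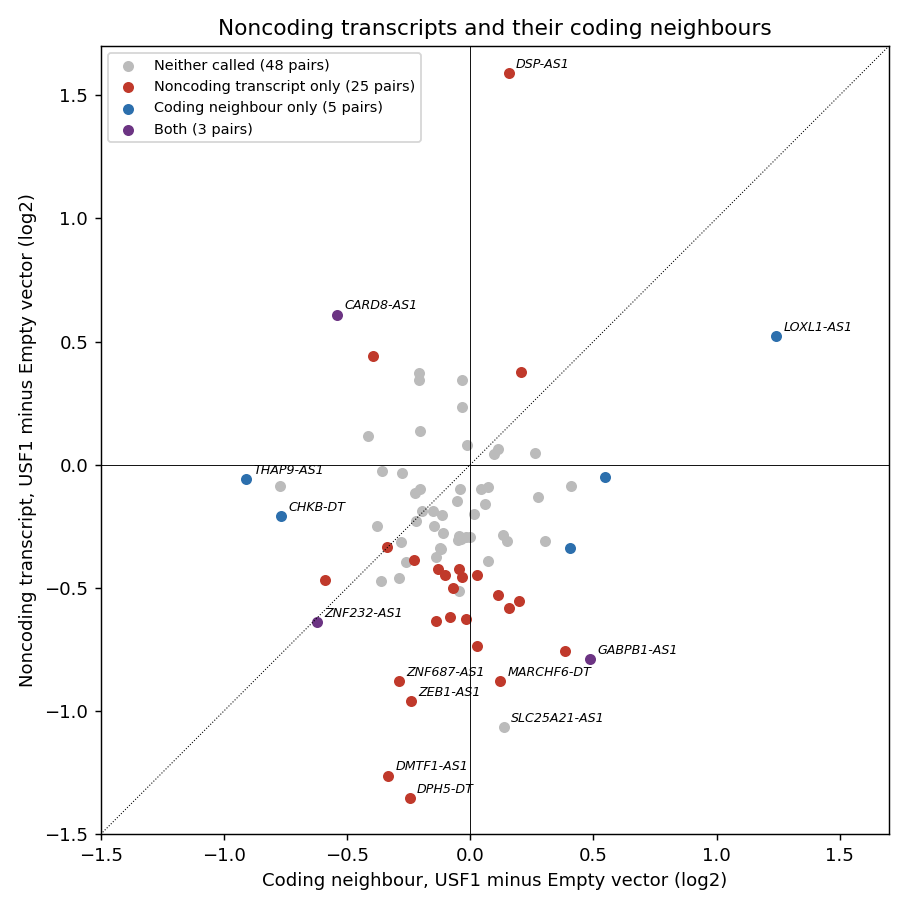
Log2 difference, USF1 minus Empty vector, of each noncoding transcript against that of its coding neighbour, for 81 pairs coloured by which member was called, with lines at 0 and a dotted line of equal differences. The 25 pairs in which only the noncoding transcript was called (red) lie mostly below 0 on the vertical axis and between -0.59 and 0.38 on the horizontal one.

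In 45 of the pairs both genes start within 1 kb of each other on opposite strands. Of these, 12 had a fall and 2 a rise of the noncoding transcript alone, 1 had both lower, 1 had the noncoding transcript higher and the neighbour lower, 3 had the neighbour alone called and 26 had neither. The bases between the 2 starts are shown for 3 pairs in which the noncoding gene changed and the coding gene did not pass the test, the 2 with the largest falls and 1 with a rise, read 5' to 3' along the noncoding strand from RefSeq on GRCh38.p14. They are *DPH5-DT* (chr1:101025785-101025845, plus strand, 61 bases), *DMTF1-AS1* (chr7:87152318-87152452, minus, 135 bases) and *ILRUN-AS1* (chr6:34696768-34696944, plus, 177 bases).
DPH5-DT: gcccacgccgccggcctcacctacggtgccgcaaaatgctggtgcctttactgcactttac
DMTF1-AS1: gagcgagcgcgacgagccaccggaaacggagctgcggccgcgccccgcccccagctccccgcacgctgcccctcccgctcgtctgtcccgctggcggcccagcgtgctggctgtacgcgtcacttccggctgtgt
ILRUN-AS1: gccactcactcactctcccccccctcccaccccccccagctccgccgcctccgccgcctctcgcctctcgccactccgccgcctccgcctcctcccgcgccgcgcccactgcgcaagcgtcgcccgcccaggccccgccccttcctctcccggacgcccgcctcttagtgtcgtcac

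The G and C content of these stretches was 62.3%, 75.6% and 77.4%, and the median over the windows of the noncoding genes was 65%, against 58.7% for all windows. *DMTF1* was at 6.47, 6.34 and 6.57 with USF1 and at 6.90, 6.87 and 6.60 with Empty vector (-0.33, adjusted p-value 0.0823 from limma). *ILRUN* was at 5.58, 5.65 and 5.45 with USF1 and at 6.18, 5.96 and 5.71 with Empty vector (-0.40, adjusted p-value 0.075 from limma). In both coding genes the arrays were apart, and the *ILRUN* difference at this probe set was opposite in sign to that of *ILRUN-AS1*. The dimmer *ILRUN* probe sets differed by -0.09 and 0.15, and neither was called.

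Of 86 measured genes of proteins known to act on noncoding transcripts 8 fell, or 9.3%, and 0 rose, where 8.89% of all genes were lower and 5.18% higher. At an unadjusted p-value under 0.05, where 23.9% of all genes were lower, the lower ones were 12 of 22 genes of the Integrator complex and termination, 4 of 13 of nonsense-mediated decay, 3 of 20 of the exosome, 4 of 14 that work with small nucleolar RNAs and 1 of 17 of paraspeckles, and 1 paraspeckle gene was higher. In the nuclear exosome and its cofactors 1 of 20 measured genes fell, *EXOSC9* by 0.44 (adjusted p-value 0.0422 from limma). In nonsense-mediated decay 2 of 13 fell, *SMG9* by 0.46 and the decapping cofactor *DCP1A* by 0.42. In the Integrator complex and transcription termination 4 of 22 fell, the Integrator subunits *INTS3*, *INTS12* and *INTS6*, each by 0.39, and *INTS13* by 0.36. Of 14 proteins that work with small nucleolar RNAs 0 were called by limma, and of 17 paraspeckle proteins *FAM98A* fell by 0.37. Each of the 8 genes that fell kept its call in only 1 to 3 of the 6 fits with an array left out. All 8 lost it without USF1 replicate 1 and without USF1 replicate 3. The median differences of these lists were -0.14, -0.16, -0.24, -0.08 and 0.07.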

How the data were processed

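Expression in HEK293T cells was measured on 6 arrays, 3 per group, assigned from their titles. The deposited values are log2 expression values that the authors made with justRMA (background subtraction and quantile normalization) in R 2.8.0, per the paper's methods and the labels, after masking mis-targeted and nonspecific probes. The authors' filters removed probe sets that kept too few probes or were absent on most arrays, so a transcript detected in 1 group alone could enter through that group, and they applied ComBat to batches that no source used here names. The number of arrays limits the precision.

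The noncoding genes, neighbours and lists were chosen with earlier results of these data known. Probe sets were named from the platform annotation, with symbols updated to RefSeq through Entrez IDs. It lists 1 gene for 15099 probe sets and several for 570, and 900 have none. Probe positions were not given, so the strand each noncoding probe set reads could not be checked. The paper lists those of *DSP-AS1*, *ELOA-AS1*, *RARA-AS1* and *PTPRG-AS1* under the coding gene of the pair. A gene with several probe sets (16 of 113) enters at its brightest probe set, by mean over all arrays. The coding neighbour is the gene in the symbol, or otherwise the nearest within 10 kb in the RefSeq table. Differences were fitted with limma 3.58.1 (lmFit, eBayes, no covariates, prior of 4.53 degrees of freedom) in R 4.3.3 over all probe sets, with Benjamini-Hochberg adjustment, and within-array differences of pairs with an exact permutation test, 2-sided. Promoter windows matched 95 of 113 genes and were searched for CACGTG.

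Named genes are all called members, *MALAT1*, *NEAT1*, *TUG1*, *GAS5*, *OIP5-AS1*, all measured SNHG genes, the members with the smallest p-values per class, those nearest the threshold, their neighbours, and up to 4 called genes per list. Genes with CACGTG, *C2orf74-DT*, *SLC25A21-AS1*, *RBM26* and the pairs in which the neighbour alone was called were added after their values were seen. Tested on simulated data with 3 against 3 arrays and 16569 probe sets, the fit recovered 55 of 100 changes of 0.5 and 99 of 100 of 1.0 on the log2 scale, with 17 false calls. The simulated noise was independent between probe sets and had no array that stood apart, so these rates need not hold for the real arrays. Alternatives were array weights, robust moderation, further normalization, a filter on low values, the linear scale, the methods' t-test, a replicate block, other neighbour distances and leaving out each array.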

Additional observations from a re-analysis of the deposited data

How the results depend on the processing

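Of 113 genes 31 were lower and 4 higher. The counts below stand beside the share of all probe sets called lower, which was 7.6% as reported. They were 17 lower and 4 higher of 63 tested without the 25% of probe sets with the lowest mean (9.15%), 11 lower and 2 higher on the linear scale (3.93%), and 57 lower and 8 higher at an unadjusted p-value under 0.05 (21.5%). The methods' t-test with adjustment gave 0 lower and 0 higher with unequal variances (0.00604% of all probe sets lower and 0% higher). Unadjusted, it gave 37 lower and 4 higher (13.6% and 7% of all probe sets). With equal variances and adjustment it gave 2 lower and 1 higher (0.459% and 0.507% of all probe sets). Without USF1 replicate 2 and Empty vector replicate 1 together, chosen after seeing the data, 46 were lower and 8 higher (14.6%, and 7.94% of all probe sets higher). With each array centred on its median 21 were lower and 5 higher (4.92%), and the share of higher calls over all probe sets went from 36.2% to 56.1%. It was 50.4% after further quantile normalization, with 26 lower and 4 higher (5.79%). Leaving out 1 array gave 5 to 40 lower and 1 to 6 higher.

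The median difference of -0.29 was -0.23 with centred arrays and -0.33 to -0.22 when 1 array was left out. Pairs with the noncoding transcript alone called went from 25 to between 6 and 28, and pairs with both called the same way from 1 to between 0 and 3 when 1 array was left out, and were 2 with a neighbour distance of 50 kb and 2 with centred arrays. All 31 falls kept their sign when 1 array was left out. This was fixed in advance, since in each of them all USF1 arrays lay below all Empty vector arrays. Replicate numbers gave correlations of deviations of 0.096, 0.246 and 0.129, and each array correlated best with its own number. The labels do not say that the numbers pair arrays. With the replicate block 42 genes were lower and 5 higher, among them all 31 and all 4, and the share of all probe sets called lower was 11.9%.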
